A study of Mus musculus with 6 samples.

Results

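Serpins and Kazal-type protease inhibitors are 2 families of proteins that hold proteases in check, and their genes were taken by name: every gene whose symbol in the platform annotation begins with Serpin, or with Spink and a number. The rule gave 47 genes of the 18193 with a symbol of their own on the array, namely 14 of serpin clade A, 18 of clade B, 8 of clades C to I and 7 Spink genes. The rule uses no measured difference. Where a gene had several probe sets, the 1 with the highest mean over all arrays stood for it. In all 63 probe sets belonged to these genes, and 3 others that match several serpins at once were not assigned to a gene.

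A serpin presents a bait loop to a serine or cysteine protease, is cut, and traps the enzyme in a dead covalent complex, so that each molecule works once. Clade A holds mainly secreted plasma proteins made in the liver, such as alpha-1-antitrypsin, whose shortage in people leaves neutrophil elastase unchecked in the lung and leads to emphysema. Clade B serpins mostly stay inside the cell that makes them and guard it against its own or leaked proteases. Spink proteins carry Kazal domains, which block trypsin-like proteases by sitting tightly in the active site without being used up.

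The study used the left lobe of the lung of mouse fetuses at E18.5, just before birth, of strain C57/BL6. The 6 animals form 3 pairs, each with 1 animal lacking Smad1 in the lung epithelium (Smad1 CKO, 3 mice) and 1 wild type animal (3 mice). Smad1 is a transcription factor that relays signals of bone morphogenetic proteins. No source used here gives the driver of the deletion, and the RNA came from the whole lobe, so that it also holds vessels, connective tissue and blood, in which Smad1 was not targeted. RNA of each lobe was hybridised to an Affymetrix Mouse430_2 array of its own, and the deposited value is an intensity per probe set. Differences below are CKO minus wild type within a pair, on the scale of log2(intensity + 1), given as the mean ± SD of the 3 pairs. Because a bulk sample was measured, fewer cells of a type and less RNA per cell cannot be told apart. The number of arrays limits the precision. In fits with the pair as a block, p-values and intervals rest on how the differences vary between the pairs of these mice. That spread is drawn toward a variance estimated from all probe sets. An interval can therefore differ from what the SD of the 3 pairs alone would give.

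Smad1 itself read 1111, 1577 and 529 on the CKO arrays, against 1026, 1089 and 739 on the wild type arrays, a difference of 0.06 ± 0.51 (limma, adjusted p = 0.904). The genotype label therefore could not be checked from this gene's probe set, which may lie outside the deleted part. Wif1, the Wnt antagonist named in the title of the series, read 37.3, 64.0 and 27.6 on the CKO arrays and 111, 210 and 69.9 on the wild type arrays (-1.52 ± 0.20). The array of CKO 3 stood apart: its 18S control read 2887, against 242.5 to 297.2 on the other 5, and its beta-actin control 5820, against 18445 to 20900. Bright probe sets lay lower there, and the brightest tercile differed by a median of -0.30, -0.02 and -0.96 in pairs 1, 2 and 3, the dimmest tercile by 0.14, 0.02 and 0.28. The X-linked Xist read 1971 on the CKO 1 array, 207 on the CKO 3 array and 66.2 to 97.4 on the others. The Y-linked Eif2s3y read 12.7 on CKO 1, 133 on CKO 3 and 404 to 525 on the others. On both genes CKO 3 departed in the same direction as CKO 1, but less. Pair 1 therefore carries a sex-linked difference besides genotype, whose part in the results was not tested. Markers of alveolar type 2 cells, the makers of surfactant, were bright on all arrays, as the lung label requires, and their summed intensity was 38139, 43827 and 11770 on the CKO arrays and 68755, 71645 and 59978 on the wild type arrays.

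None of the 47 genes passed an adjusted p of 0.05 in either direction (limma with the pair as a block), and neither did any of the 18193 genes by their representative probe sets (0% lower, 0% higher). Over all 45037 probe sets, 0.00222% were called lower and 0% higher. At an unadjusted p under 0.05, 3 members were lower in CKO lungs (9.96% of all genes were) and 6 were higher (4.96% of all genes). All 3 pairs agreed for 8 lower members (29.3% of all genes) and 21 higher members (21% of all genes), and in 18 the pairs had mixed signs. The 3 CKO values lay wholly below the 3 wild type values for 6 members (6.05% of all genes) and wholly above them for 3 (4.25%). The 3 lower genes were Spink5, Serpinb6b and Serpinb9, and the 6 higher ones all belonged to clade A. The median difference of the members was 0.19, against -0.09 over all genes, and it was 0.15, 0.02 and 0.31 in pairs 1, 2 and 3. Single animals moved these counts: the higher genes, 6 in all, numbered 1 without pair 1, 10 without pair 2 and 5 without pair 3, and the members' median was 0.09 without pair 3. Leaving out the CKO 3 array alone also took away the pairing, since wild type 3 then had no partner. That unpaired fit gave 1 higher gene and a median of 0.03, and an unpaired fit of all 6 arrays likewise gave 1 higher gene. The lower genes numbered 2 to 3 when a pair was left out and 4 in the unpaired fit without CKO 3.

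Brightness moved with these counts. Of the members, 32 had a mean below the array median (intensity 71.2) and 15 lay at or above it. The dim 32 had a median difference of 0.22, close to the 0.24 of the 6233 dim genes on the array, and 18 of them were higher and 1 lower in all 3 pairs (41.6% and 5.86% of dim genes). At an unadjusted p under 0.05, 4 of the dim members were higher (7.8% of dim genes) and 0 lower (1.64%). The brighter 15 had a median of -0.27, against -0.36 for the 11960 brighter genes, and 7 were lower and 3 higher in all 3 pairs (41.5% and 10.2% of brighter genes). At an unadjusted p under 0.05, 3 of these were lower (14.3% of brighter genes) and 2 higher (3.49%). The part of this shift in each difference was not tested. After cyclic loess, which evens out shifts with brightness between arrays, the count of members higher in all 3 pairs was 13 in place of 21, and the calls over all probe sets at an unadjusted p under 0.05 were 47.4% higher ones, against 33.8% in the values as deposited.

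**Figure D1:**
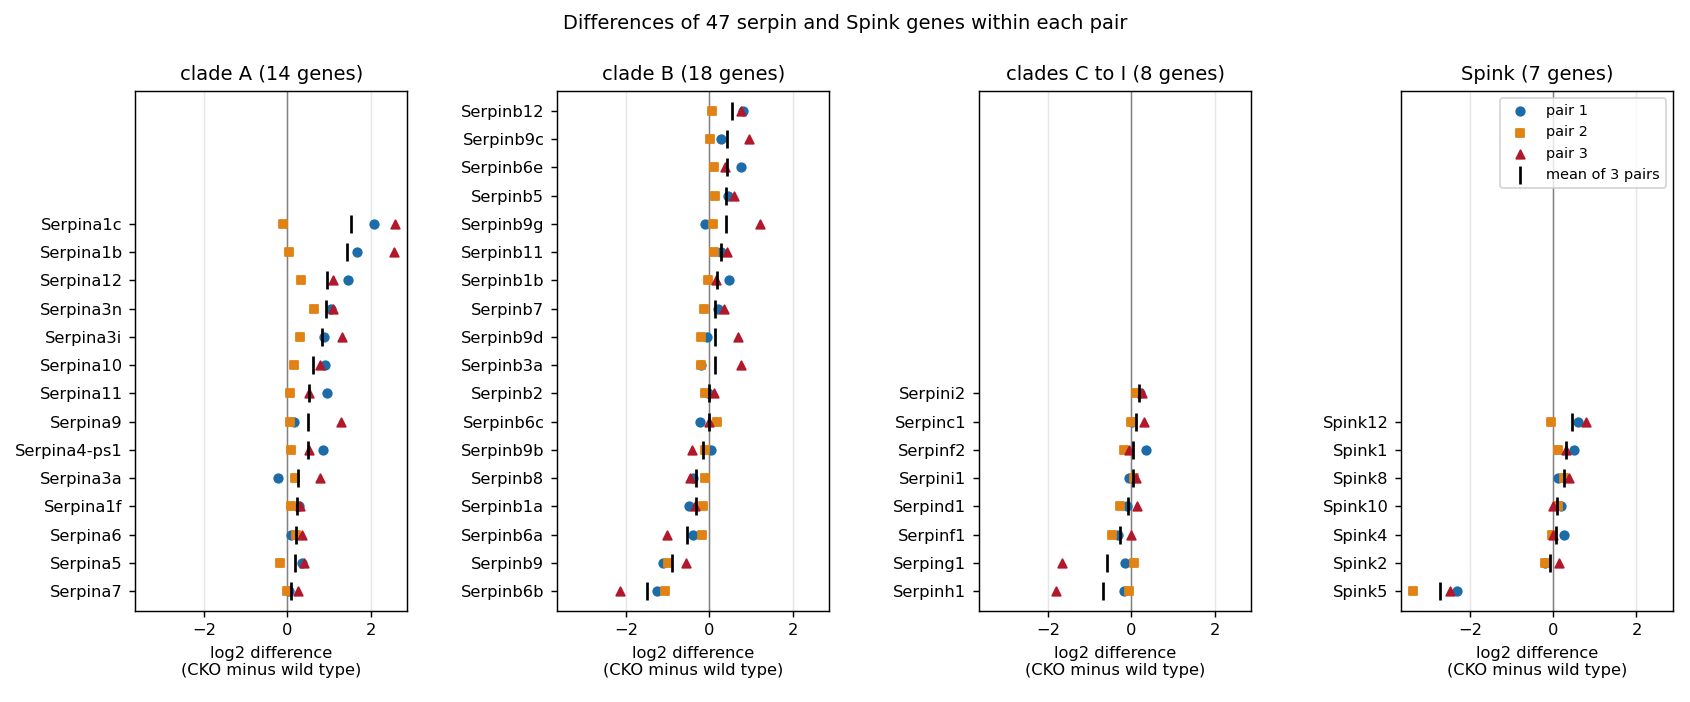
The log2 difference, CKO minus wild type, is plotted for each of the 47 genes in 4 classes, with 1 symbol per pair and a bar at the mean of 3 pairs. Spink5 lies at -2.30, -3.36 and -2.47, apart from the other 6 Spink genes, the means of all 14 clade A genes lie above 0, and the squares of pair 2 lie nearest to 0 for most of clade A.

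**Figure D2:**
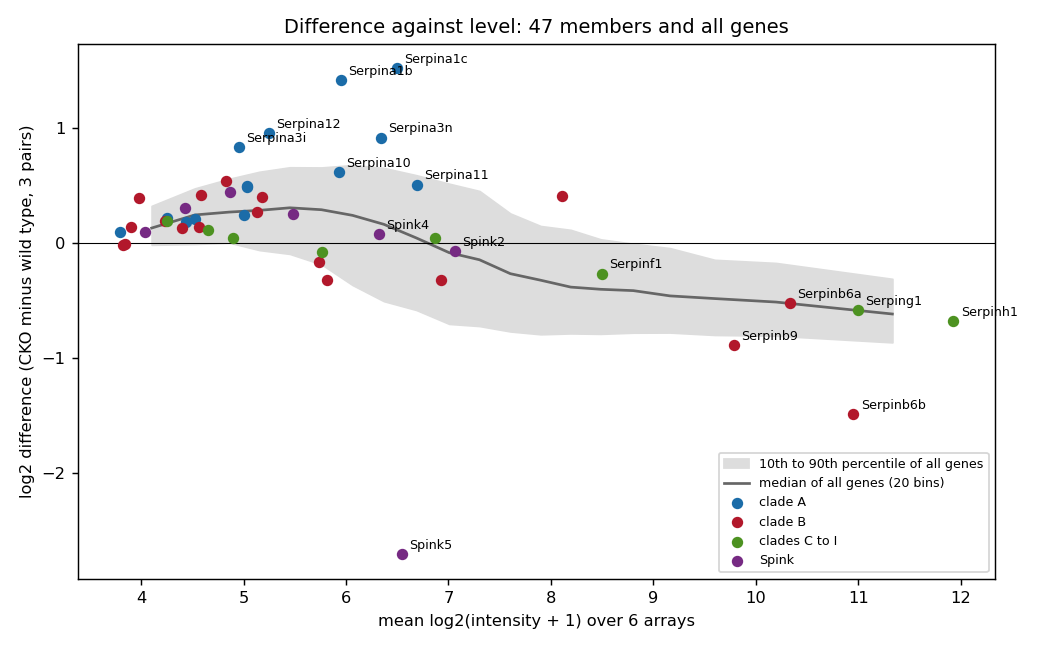
Each point is 1 of the 47 genes, with its mean log2(intensity + 1) over 6 arrays on the horizontal axis and its log2 difference, CKO minus wild type, on the vertical axis. The line is the median of all genes in 20 bins of level and the band spans their 10th to 90th percentile; the line falls to -0.62 in the brightest bin, and Spink5, Serpinb6b and several clade A genes lie outside the band.

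Among the Kazal-type inhibitors, Spink5 differed most. Spink5 encodes LEKTI, a chain of inhibitory domains that holds back the kallikreins of the epidermis, and its loss in people causes Netherton syndrome, a disorder of the skin barrier. Its intensity was 43.1, 33.6 and 31.2 in CKO lungs, against 216.5, 354 and 177.8 in wild type lungs. The groups did not overlap, and the lowest wild type value was far above the highest CKO value. The difference was -2.71 ± 0.57 (95% interval -3.36 to -2.06), or 6.55-fold lower in CKO lungs, and was present in 3 of 3 pairs. It did not pass in the main test (limma, adjusted p = 0.225). It passed when pair 3, which holds the CKO 3 array, was left out (-2.83, adjusted p = 0.00972), when the dimmest tercile of probe sets was left out (adjusted p = 0.0150) and when the variance was allowed to follow intensity (adjusted p = 0.00142). Over the 11 alternatives the difference ran from -2.92 to -2.30 and its adjusted p from 0.00142 to 0.781. In the 2 bins of level around it, the lowest 10% of all genes began at -0.51 and -0.58.

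The other 6 Spink genes did not share this. Spink2, which inhibits acrosin in sperm, read 131, 136 and 122.5 in CKO lungs and 149, 155 and 110 in wild type lungs, with overlapping groups (-0.07 ± 0.20). Spink4, known from goblet cells of the gut, read 99.9, 73.5 and 72.7 in CKO lungs and 82.9, 75.3 and 72.8 in wild type lungs (0.08 ± 0.17). The 4 others were dimmer than the array median. Spink1, the trypsin inhibitor of the pancreas, read 25.4, 20.1 and 23.8 in CKO lungs and 17.75, 18.3 and 19.0 in wild type lungs, so its groups did not overlap, at a small difference of 0.31 ± 0.18. Spink12, Spink8 and Spink10 differed by 0.44, 0.25 and 0.10. Spink5 lies on chromosome 18, as do Spink1, Spink10 and Spink12, and of these 4 only Spink5 had a negative difference.

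The proteases that LEKTI could meet gave a varied picture. Of 26 measured epithelial serine proteases and kallikreins of 28 listed, 2 were lower and 6 higher at an unadjusted p under 0.05, and 2 were lower and 12 higher in all 3 pairs, with a median difference of 0.20. Over all genes the shares were 9.96% and 4.96% at that p, and 29.3% and 21% in all 3 pairs. Klk13, a kallikrein of squamous and airway epithelium, read 183, 121 and 122 in CKO lungs, against 294, 382 and 307 in wild type lungs (-1.22 ± 0.50, adjusted p = 0.367). Its groups did not overlap. Klk8, a kallikrein of skin and brain, read 198, 180 and 122 in CKO lungs, against 277, 282 and 225 in wild type lungs (-0.67 ± 0.20, adjusted p = 0.367), again without overlap. The other 9 of the 11 Klk genes in the list had positive differences. Of the 11, 7 were dimmer than the array median, where 5290 of 6233 genes had positive differences. Klk13 and Klk8 were brighter than the array median, where 41.5% of genes were lower in all 3 pairs. In the bin of level whose median was 7.61, the lowest 10% of all genes began at -0.77. Klk5 and Klk7, the best known targets of LEKTI in skin, were dim: Klk5 read 42.0, 23.7 and 66.4 in CKO lungs and 26.9, 28.4 and 33.1 in wild type lungs, and Klk7 read 61.0, 46.4 and 115.8 in CKO lungs and 50.5, 47.7 and 61.4 in wild type lungs. In both the CKO 2 value lay below its wild type partner, so the pairs had mixed signs. Ctrl, a chymotrypsin-like enzyme (0.90 ± 0.58), and Prss22, a tryptase of airway epithelium (0.65 ± 0.29), had positive differences in 3 of 3 pairs. The 7 measured markers of stratified squamous epithelium, where LEKTI is best known, summed to 466, 276 and 473 in CKO lungs and 287, 266 and 333 in wild type lungs. None of the 7 had a negative difference. But 6 of them were dimmer than the array median, where 5290 of 6233 genes had positive differences.

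**Figure D3:**
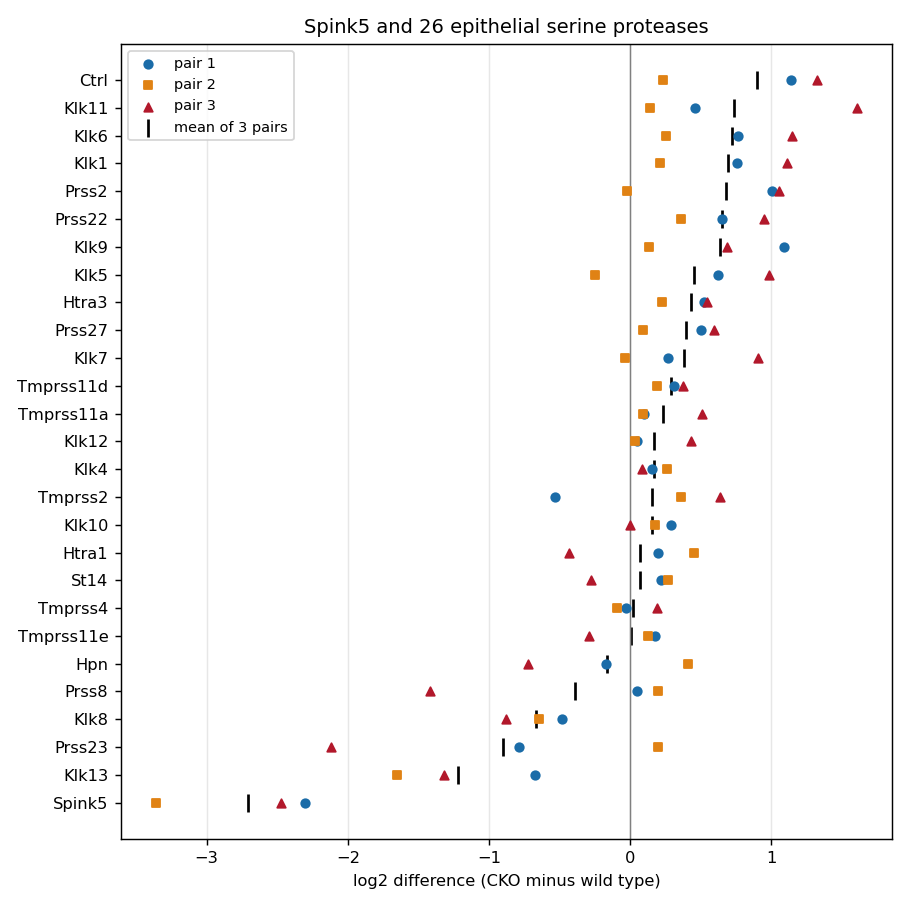
Log2 differences, CKO minus wild type, of Spink5 and of the 26 measured epithelial serine proteases, with 1 symbol per pair and a bar at the mean. Klk13 (-1.22) and Klk8 (-0.67) lie on the same side as Spink5 in all 3 pairs, as do 41.5% of the genes at or above the array median. Means above 0 are seen for 21 of the 26 proteases (8061 of all 18193 genes).

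In clade B, Serpinb6b and Serpinb9 had the most negative differences. Serpinb6b, an intracellular serpin of the mouse group related to human SERPINB6, read 1576, 1684 and 623.6 in CKO lungs, against 3790, 3515 and 2760 in wild type lungs. Every CKO value lay below every wild type value, and the CKO 3 array gave the lowest. The difference was -1.49 ± 0.58 (95% interval -2.15 to -0.84; 2.81-fold lower, limma adjusted p = 0.367) and was present in 3 of 3 pairs. After cyclic loess it was -0.90. Without pair 3 it was -1.16.

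Serpinb9, which protects cells from granzyme B, read 529, 680 and 760 in CKO lungs, against 1137, 1363 and 1122 in wild type lungs, again without overlap. Its difference was -0.89 ± 0.29 (95% interval -1.39 to -0.38; 1.85-fold lower, limma adjusted p = 0.367). A second probe set of the gene gave -1.67, in the same direction. The first probe set depended on scaling: its difference was -0.37 after cyclic loess and -0.37 after quantile normalization. Serpinb6a, whose product inhibits trypsin-like proteases and cathepsin G, read 1174, 1431 and 745 in CKO lungs and 1537, 1620 and 1503 in wild type lungs (-0.53 ± 0.43, adjusted p = 0.367). Its groups did not overlap, but after cyclic loess its difference was 0.03, and in the bin of level whose median was 10.2 the median difference of all genes was -0.51. Serpinb6b and Serpinb9 are neighbours on chromosome 13, with 0 protein-coding genes between them in RefSeq. Of the 11 members on that chromosome, these 2 alone were lower at an unadjusted p under 0.05 (9.96% of all genes, 14.3% of brighter genes). The median difference of the 11 was -0.01.

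The remaining clade B genes had differences of either sign. Serpinb1a, an inhibitor of neutrophil elastase, read 94.4, 145 and 90.5 in CKO lungs and 133, 161 and 115 in wild type lungs (-0.33 ± 0.17). Its second, dimmer probe set gave -0.08. Serpinb8, an intracellular inhibitor of furin, read 51.2, 52.4 and 44.5 in CKO lungs and 68.0, 56.4 and 61.9 in wild type lungs (-0.32 ± 0.19), with no overlap. A second Serpinb8 probe set of similar level gave -0.05, with mixed signs over pairs and overlapping groups. Serpinb6e went the other way without overlap, at 350, 269 and 341 in CKO lungs and 207, 250 and 262 in wild type lungs (0.41 ± 0.33). Its probe set is of the type that can cross-hybridise with related genes, so the close copies of Serpinb6 may not be told apart there. Serpinb5, or maspin, a serpin of epithelial cells, differed by 0.40 ± 0.23, and Serpinb12 by 0.54 ± 0.42. Dimmer probe sets gave 0.10 to 0.27 for Serpinb5 and 0.09 for Serpinb12. Serpinb2, plasminogen activator inhibitor 2, and Serpinb6c were dim and differed by -0.01 each. Over all 18 clade B genes the median difference was 0.13, with 5 lower and 5 higher in all 3 pairs.

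Serpinb6b and Serpinb9 can be read beside the markers of other lung cell types and beside the proteases of leukocytes. The 7 endothelial markers summed to 5873, 6391 and 2096 in CKO lungs and 9598, 10017 and 6403 in wild type lungs. All 7 were lower in CKO lungs in all 3 pairs (41.5% of brighter genes, to which all 7 belong). Macrophage and neutrophil markers summed to 8352, 9542 and 3502 in CKO lungs and 14567, 15728 and 9678 in wild type lungs. Of the 7, 2 were lower in all 3 pairs (29.3% of all genes), and the median difference was -0.16. Mast cell markers summed to 1310, 1502 and 1260 in CKO lungs and 2208, 2688 and 1826 in wild type lungs. But 5 of the 7 had positive differences (median 0.48), as had 8061 of all 18193 genes. Kit (-1.39) and Hdc (-0.81) were the 2 mast cell markers with negative differences. The part of these cell types in the result was not tested. Among 17 measured leukocyte and mast cell proteases of 20 listed, 0 were lower and 3 higher at an unadjusted p under 0.05 (9.96% and 4.96% of all genes), with a median difference of 0.36. Of the 17, 13 were dimmer than the array median, where 7.8% of genes were higher. Gzmb, the granzyme that Serpinb9 inhibits, differed by -0.14 ± 0.16. The mast cell chymase Cma1 read 98.7, 148 and 175 in CKO lungs and 60.8, 55.02 and 81.1 in wild type lungs (1.07 ± 0.36, adjusted p = 0.367). Mcpt2, another mast cell protease (0.72 ± 0.27), and the tryptase Tpsb2 (0.70 ± 0.56) were also higher in all 3 pairs, and Tpsab1 differed by 0.89 ± 1.04 with mixed signs.

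**Figure D4:**
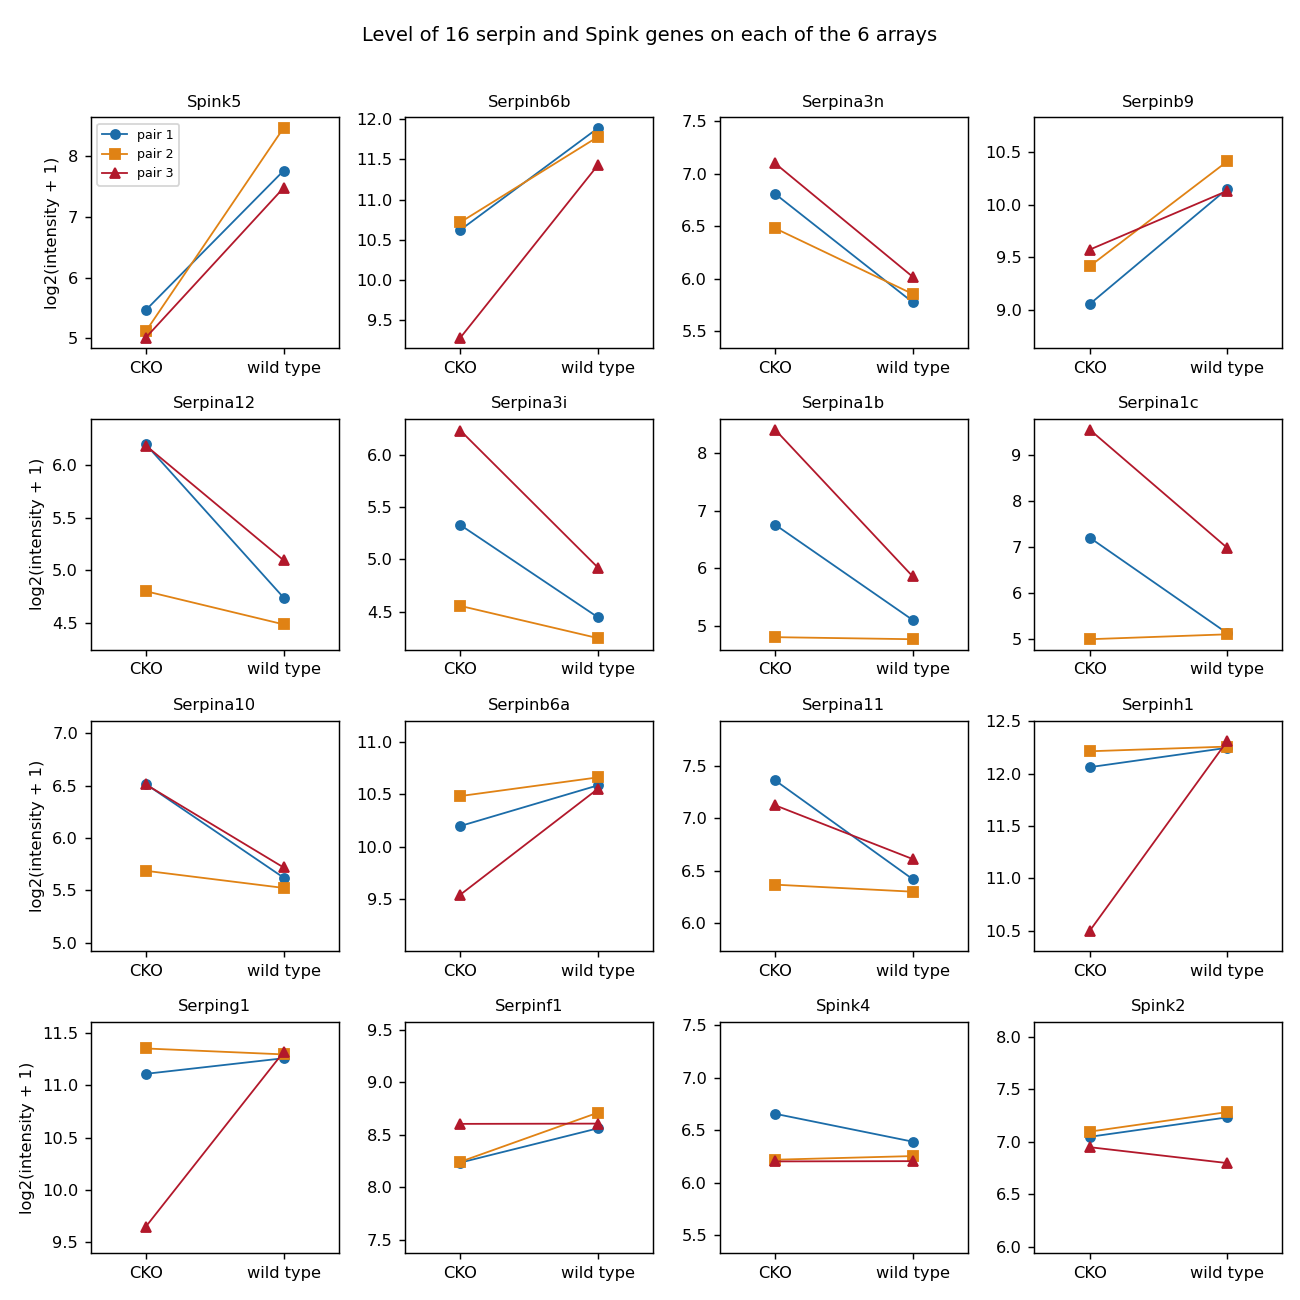
Log2(intensity + 1) of 16 serpin and Spink genes on each of the 6 arrays, CKO at the left and wild type at the right of each panel, with a line joining the animals of a pair; the vertical axes differ between panels. For Spink5, Serpinb6b, Serpinb9 and Serpinb6a all 3 CKO values lie below all wild type values, for Serpina3n all lie above, and the lines of Serpinh1 and Serping1 are steep in pair 3 alone.

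The clade A genes had positive differences throughout. All 14 mean differences were above 0 (5290 of the 6233 dim genes were), with a median of 0.50. At an unadjusted p under 0.05, 6 were higher (4.96% of all genes, 7.8% of dim genes). In all 3 pairs, 11 were higher (21% of all genes, 41.6% of dim genes). After cyclic loess 13 of the 14 were above 0, with a median of 0.40. Without pair 3, 13 were, with a median of 0.49 and Serpina3a at -0.02, and in the unpaired fit without the CKO 3 array 12 were, with a median of 0.36. The shift was uneven over pairs, with a median of 0.87, 0.08 and 0.78 in pairs 1, 2 and 3. Dim genes in general were uneven in the same order, with medians of 0.25, 0.03 and 0.36. Of the 14 genes, 11 were dimmer than the array median, and these 11 had a median of 0.49, beside 0.24 for dim genes in general. All but Serpina7 lie on chromosome 12, and some of them, such as Serpina1b and Serpina1c, are near copies.

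Serpina1c and Serpina1b are copies of the gene for alpha-1-antitrypsin, of which the mouse has several. Serpina1c read 147.1, 30.9 and 756.5 in CKO lungs, against 33.9, 33.3 and 125.5 in wild type lungs. Serpina1b, on a probe set of the type that can cross-hybridise, read 107.6, 26.9 and 340.7 in CKO lungs, against 33.3, 26.3 and 57.1 in wild type lungs. In both genes CKO 1 and CKO 3 were high, CKO 2 read like its wild type partner, and the groups overlapped. The differences were 1.52 ± 1.43 for Serpina1c and 1.42 ± 1.28 for Serpina1b (limma, adjusted p = 0.367 for both), and the second probe set of Serpina1b gave 1.43. They rest on pairs 1 and 3: without pair 2 they were 2.34 and 2.11, and without pair 3 they were 0.99 and 0.85. The unpaired fit without the CKO 3 array, which keeps wild type 3, gave 0.37 and 0.54. In the main fit, a dimmer probe set that matches Serpina1b, Serpina1c and Serpina1e gave 0.30 with mixed signs. Another, for Serpina1a and Serpina1d, gave 0.05. Close copies may not be told apart on such probe sets. The proximal promoters are shown because the probe sets of both genes had a similar pattern over the 6 arrays. They come from RefSeq (GRCm38.p6, 250 bases before to 50 after the gene's start), and the capitals mark GTTAAT, the letters of a half-site of the liver factor HNF1.
Serpina1c, chr12:103904901-103905200, - strand: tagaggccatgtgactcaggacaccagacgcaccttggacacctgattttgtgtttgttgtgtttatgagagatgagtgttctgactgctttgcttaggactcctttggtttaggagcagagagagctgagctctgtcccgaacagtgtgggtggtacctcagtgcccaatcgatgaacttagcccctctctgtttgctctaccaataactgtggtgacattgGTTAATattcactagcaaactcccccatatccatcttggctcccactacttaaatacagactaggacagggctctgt
Serpina1b, chr12:103738140-103738439, - strand: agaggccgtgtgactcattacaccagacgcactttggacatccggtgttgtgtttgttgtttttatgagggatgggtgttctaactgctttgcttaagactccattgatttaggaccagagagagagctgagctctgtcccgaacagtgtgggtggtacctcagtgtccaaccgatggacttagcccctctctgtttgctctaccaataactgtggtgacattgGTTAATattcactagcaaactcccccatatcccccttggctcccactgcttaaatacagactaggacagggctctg
The pair had 276 identical bases of 298 aligned (92.6%). GTTAAT, searched on both strands, stood in 7.10% of all 32851 promoter entries of the same length and in 6 of the 43 entries of the 35 members that had one. A match is a run of letters and not a measured binding site.

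Serpina3n, a mouse relative of alpha-1-antichymotrypsin that is induced in the acute phase response, was the clade A gene whose groups did not overlap. It read 111, 88.2 and 136 in CKO lungs, against 53.7, 56.8 and 63.7 in wild type lungs. The difference was 0.92 ± 0.25 (95% interval 0.42 to 1.41; 1.89-fold higher, limma adjusted p = 0.367), was present in 3 of 3 pairs, and ran from 0.76 to 1.06 over the 11 alternatives. Serpina3i, a gene of the same cluster, was dimmer and read 39.2, 22.5 and 74.0 in CKO lungs, against 20.8, 18.0 and 29.3 in wild type lungs (0.83 ± 0.50). It was higher in all 3 pairs, with overlapping groups. In the promoters of these 2 genes the capitals mark CAGAC and its reverse complement GTCTG, the letters of a Smad half-site.
Serpina3n, chr12:104406458-104406757, + strand: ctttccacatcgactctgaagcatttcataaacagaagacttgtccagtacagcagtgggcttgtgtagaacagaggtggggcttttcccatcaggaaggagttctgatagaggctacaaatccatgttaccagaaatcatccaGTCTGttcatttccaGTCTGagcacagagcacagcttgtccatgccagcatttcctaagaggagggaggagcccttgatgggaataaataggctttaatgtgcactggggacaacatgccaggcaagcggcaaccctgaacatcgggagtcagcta
Serpina3i, chr12:104262872-104263171, + strand: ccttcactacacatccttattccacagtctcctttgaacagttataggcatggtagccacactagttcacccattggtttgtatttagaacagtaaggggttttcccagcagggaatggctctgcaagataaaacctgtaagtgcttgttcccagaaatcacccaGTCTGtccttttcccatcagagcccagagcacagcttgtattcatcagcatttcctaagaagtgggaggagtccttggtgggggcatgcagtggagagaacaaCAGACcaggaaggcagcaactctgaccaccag
They had 199 identical bases of 279 aligned (71.3%), and each held 2 matches. The Serpina1c and Serpina1b promoters above also held 2 matches of CAGAC each, which are not in capitals there. CAGAC is common: on either strand it stood in 49.6% of all promoter entries and in 22 of the 43 entries of the members. The Serpinb6b and Serpinb9 entries held 0 matches of CAGAC, of GTTAAT, of the GC-rich Smad element GGCGCC (11.9% of all entries), of the STAT element TTCNNNGAA (8.30%) and of the C/EBP element TTGCNNAA (10.8%).

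Serpina12, or vaspin, an adipose hormone that inhibits a kallikrein, read 72.5, 26.9 and 72.0 in CKO lungs, against 25.7, 21.4 and 33.2 in wild type lungs (0.96 ± 0.58, limma adjusted p = 0.367). A second probe set gave 0.29. Serpina10, the cofactor-dependent inhibitor of coagulation factor Xa, read 90.5, 50.6 and 90.2 in CKO lungs, against 48.3, 45.03 and 51.7 in wild type lungs (0.62 ± 0.40). Both genes were higher in all 3 pairs, and in both the CKO 2 value was the lowest of its group and overlapped with wild type. Serpina11, whose probe set was among the 3 brightest of the clade, read 163, 81.5 and 138 in CKO lungs and 84.5, 77.7 and 96.7 in wild type lungs (0.51 ± 0.44). The hormone carriers Serpina6, which binds corticosteroids, and Serpina7, which binds thyroxine, were near the dim end of the array and differed by 0.21 and 0.10. Serpina5, the protein C inhibitor, differed by 0.19 ± 0.32, Serpina9, known from germinal centre B cells, by 0.50 ± 0.67, and Serpina3a and Serpina1f by 0.24 and 0.22. Without pair 3 the difference of Serpina9 was 0.11. Serpina4-ps1, annotated as a pseudogene by its name, differed by 0.49 ± 0.39.

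Because clade A serpins are products of the liver above all, markers of hepatocytes were read beside them. The 7 measured of 8 listed summed to 695, 412 and 825 in CKO lungs and 391, 394 and 462 in wild type lungs, so that CKO 1 and CKO 3 were high here too. The sums of squamous epithelium markers given above were likewise highest on CKO 1 and CKO 3 (466 and 473). Dim genes in general had medians of 0.25, 0.03 and 0.36 in pairs 1, 2 and 3. All 7 hepatocyte markers had positive differences (median 0.51). At an unadjusted p under 0.05, 4 were higher (4.96% of all genes, 7.8% of dim genes). In all 3 pairs, 3 were higher (21% of all genes, 41.6% of dim genes). Of the 7, 5 were dimmer than the array median, where 5290 of 6233 genes had positive differences. Alb, for serum albumin, read 114, 93.2 and 128 in CKO lungs and 74.96, 72.7 and 85.6 in wild type lungs (0.51 ± 0.14, adjusted p = 0.367). Afp, for alpha-fetoprotein, read 80.4, 26.3 and 170 in CKO lungs, against 26.7, 31.8 and 35.3 in wild type lungs (1.17 ± 1.29). The part of such RNA in the clade A differences was not tested.

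**Figure D5:**
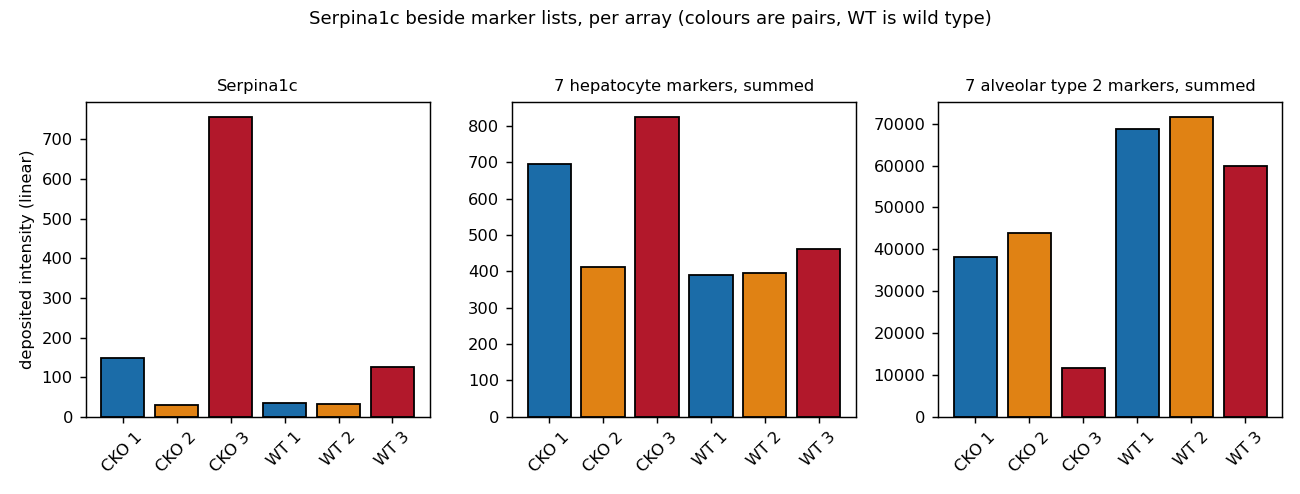
Deposited intensity on a linear scale from 0, per array, CKO 1 to 3 at the left and wild type (WT) 1 to 3 at the right, for Serpina1c, for the sum of 7 hepatocyte markers and for the sum of 7 alveolar type 2 markers; the vertical axes differ. CKO 1 and CKO 3 are the highest bars for Serpina1c (147.1 and 756.5) and for the hepatocyte markers (695 and 825), and CKO 3 is the lowest for the alveolar type 2 markers (11770).

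The serpins of clades C to I have varied roles. Serpinh1, or HSP47, is a serpin that inhibits no protease and instead chaperones procollagen in the endoplasmic reticulum. It read 4271, 4745 and 1445 in CKO lungs, against 4856, 4894 and 5082 in wild type lungs. Only the CKO 3 array was far from the rest, and the pair differences were -0.19, -0.04 and -1.81 (-0.68 ± 0.98, limma adjusted p = 0.376). Without pair 3 the difference was -0.11. A second probe set, of the type that can cross-hybridise, gave 0.02. Of 15 measured genes for collagen chaperones and modifying enzymes, and for collagens that Serpinh1 serves, 1 was lower and 0 higher at an unadjusted p under 0.05 (14.3% and 3.49% of brighter genes, to which all 15 belong). Their median was -0.17, 0.03 and -1.54 in pairs 1, 2 and 3, which is the same unevenness. Col4a2, a collagen of basement membranes, differed by -0.995 ± 0.93, and Plod2, which hydroxylates collagen lysines, by -0.65 ± 0.86.

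Serping1, the C1 inhibitor, which restrains complement and the contact system, read 2206, 2609 and 803 in CKO lungs, against 2445, 2509 and 2549 in wild type lungs (-0.59 ± 0.94, adjusted p = 0.395). Here too the CKO 3 array alone stood low, and pair 2 had the opposite sign (0.06). Without pair 3 the difference was -0.05. Serpinf1, or PEDF, an antiangiogenic serpin without inhibitory activity, read 300.6, 302.2 and 388.4 in CKO lungs and 377.3, 418.7 and 389.1 in wild type lungs (-0.27 ± 0.24). Its second probe set gave -1.06, and after cyclic loess and quantile normalization the first gave 0.14 and 0.15. Its receptor Pnpla2 differed by -0.41 ± 0.26. Serpinf2, alpha-2-antiplasmin, differed by 0.04 ± 0.28, Serpind1, heparin cofactor II, by -0.08 ± 0.20, and Serpinc1, antithrombin, by 0.11 ± 0.17. Serpini1, or neuroserpin, and Serpini2 were dim and differed by 0.04 and 0.20.

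Genes of the plasminogen and coagulation systems, both proteases and their cofactors and receptors, were also read. Of 14 measured plasminogen system genes, 2 were lower and 0 higher at an unadjusted p under 0.05 (median 0.07), beside 9.96% and 4.96% of all genes. Plat, the tissue plasminogen activator, read 84.3, 125 and 120 in CKO lungs, against 223, 213 and 187 in wild type lungs (-0.93 ± 0.40, adjusted p = 0.367). S100a10, a surface receptor for plasminogen, differed by -0.90 ± 0.82. Of 16 coagulation genes, 9 of them at or above the array median, 5 were lower and 0 higher at an unadjusted p under 0.05 (median -0.08), beside 9.96% of all genes and 14.3% of the brighter genes lower. Thbd, the thrombomodulin of endothelium, differed by -0.87 ± 0.52, Vwf, the platelet-binding factor that endothelium stores, by -0.93 ± 0.68, and F3, tissue factor, by -1.22 ± 1.22. These stand beside the lower sums of endothelial markers given above, whose part was not tested.

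Inhibitors of other families showed 1 large difference. A2m, the broad protease trap alpha-2-macroglobulin, read 264, 367 and 256 in CKO lungs, against 718, 918 and 732 in wild type lungs. The groups did not overlap, and the pairs were alike, at -1.44, -1.32 and -1.51 (-1.42 ± 0.10, limma adjusted p = 0.367). Of the 31 measured genes of this kind, 5 were lower and 1 higher at an unadjusted p under 0.05 (9.96% and 4.96% of all genes), with a median of -0.19. Itih5, of the inter-alpha-trypsin inhibitor family, differed by -0.77 ± 0.48, Tfpi2, a Kunitz-type inhibitor, by -0.62 ± 0.23, and Wfdc18, of the whey acidic protein group, by 0.79 ± 0.55. Among 20 cathepsins and furin-type proteases the median was -0.34, with 1 lower and 1 higher at an unadjusted p under 0.05 (9.96% and 4.96% of all genes). Those were Pcsk5 (-0.56 ± 0.11) and Pcsk6 (0.63 ± 0.28), both of the furin family. Of 11 measured serpin receptors and partners, 1 was lower and 0 higher at an unadjusted p under 0.05 (9.96% and 4.96% of all genes). Their median difference was -0.41, and 10 of the 11 had negative differences. But 9 of the 11 were at or above the array median, where 9189 of 11960 genes had negative differences. The 1 lower at that p was the endocytic receptor Lrp2. Lrp2 read 28.8, 32.9 and 42.4 in CKO lungs and 168, 81.6 and 64.5 in wild type lungs (-1.46 ± 0.96).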

How the data were processed

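Left lung lobes of 3 Smad1 CKO and 3 wild type mouse embryos (embryonic day 18.5) were profiled on 1 Affymetrix Mouse430_2 array each. The authors deposited a linear intensity for each probe set, computed with RMA (which corrects background, normalizes arrays and combines probes), per the submitters' processing notes. The sources used here do not give the software or its settings.

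Intensities were turned into log2(value + 1), and 64 control probe sets were left out. The genotypes were compared on 45037 probe sets by limma 3.58.1 (R 4.3.3; functions lmFit and eBayes; two-sided p), each pair being a block, and p was adjusted over all of them by Benjamini-Hochberg, with a threshold of 0.05. The fit was tested on simulated data. Pairs come from the design text and from letters shared by array names. Deviations from the group means correlated at 0.258, 0.604 and 0.597 within pairs, and at 0.215 or lower between other arrays. No array was a copy of another (smallest root mean square distance 0.227 on the log2 scale).

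The members and lists were chosen with earlier results of these data known. The text names members at an unadjusted p under 0.05, the 3 brightest of each class and up to 4 genes of a list by smallest p. Other members and list genes are given for completeness or as known targets, chosen after their values were seen. Alternatives were other normalizations, a pseudocount of 16, a filter on dim probe sets, an intensity trend, the mean of a gene's probe sets, no block, leaving out each pair, and leaving out the CKO 3 array in an unpaired fit. Promoters were aligned with Biopython 1.88.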

Additional observations from a re-analysis of the deposited data

How the results depend on the processing

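Of 174 values of the 16 named serpin and Spink genes over 11 alternatives, 164 kept their direction and their side of the threshold, 3 passed it newly, all of Spink5, and 7 turned their sign, in 5 genes. Cyclic loess turned Serpinb6a to 0.0261, Serpinf1 to 0.141, Serping1 to 0.00316 and Spink2 to 0.0875. Quantile normalization turned Serpinf1 to 0.153 and Spink2 to 0.0795, and Spink4 ran from -0.0185 to 0.155 when a pair or the CKO 3 array was left out. The fit without the CKO 3 array has no pairing, so it differs in 2 ways from the reported one. The cause was not tested. Serpina12 and Serpina3i could not be fitted without the dimmest tercile. Without the replicate block, 1 member was higher at an unadjusted p under 0.05, in place of 6. With an intensity trend 10 were. Leaving out a pair gave 1 to 10, and the unpaired fit without the CKO 3 array gave 1. Leaving out arrays gave 2 to 4 members lower at that level, and 10 to 13 lower and 21 to 26 higher in all remaining pairs. Fewer pairs agree in sign more easily. Of all 18193 genes, 6213 were lower and 4878 higher in pairs 1 and 2, against 5334 and 3813 in all 3 pairs. Members lower after adjustment numbered 1 with an intensity trend, 1 with the dimmest tercile left out and 0 to 1 when arrays were left out. Members higher in all 3 pairs numbered 13 after cyclic loess and 6 of the 21 left without the dimmest tercile, where the median difference was -0.0776. That filter leaves out the dim members and takes the median of all probe sets to -0.23. The members' median was 0.0899 to 0.276 when a pair was left out and 0.0316 in the unpaired fit without the CKO 3 array. Over all probe sets, adjusted calls were 1 lower and 0 higher, against 30 and 2 with a trend, 24 and 4 without pair 3, and 17 and 0 without the dimmest tercile. Of the unadjusted calls 33.8% were higher, against 47.4% after cyclic loess, 42.4% after quantile normalization and 50.8% with a trend. For dim members the signal over background limits what can be told.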
